A study of Mus musculus with 12 samples.

Results

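Bulk regulatory T cells (Treg) of the mouse thymus that carried no tdTomato label were compared with newly generated Treg that were labelled but lacked CD73 on their surface. Of the 12 RNA sequencing libraries of the series, 6 belong to this comparison. The 3 libraries of tdTomato- Treg came from CD4+ cells that were tdTomato- and GFP+, not divided by CD73. The 3 libraries of CD73- new Treg came from CD4+ cells that were tdTomato+, GFP+ and CD73-. All were sorted from thymus of C57BL/6 mice 7 days after an intraperitoneal dose of tamoxifen (10 µg per g), so both groups had the drug and both were positive for the GFP reporter of Foxp3. The labels name neither the Cre driver nor the reporter alleles. They give no age of the mice. Nor do they state whether the libraries within a group are from different mice, so the p-values reflect variation among these libraries only, some of which may be technical. The tdTomato- gate holds any GFP+ CD4+ thymocyte without the label, whatever its age or its level of CD73.

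Treg begin in the thymus as CD4+ thymocytes that meet self antigen, receive signals through the T cell receptor (TCR) and interleukin 2 (IL-2), and switch on Foxp3, their lineage transcription factor. Thymic Treg also include cells that stay in the organ or return to it from the periphery, where Treg acquire an effector programme with tissue-homing receptors. CD73, encoded by Nt5e, is a surface enzyme that turns AMP into adenosine, and it works after CD39, encoded by Entpd1, which turns ATP and ADP into AMP. Because bulk RNA was measured, a larger share of cells that express a gene and more of its RNA per cell cannot be told apart in any value below.

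The groups stand in 2 deposited tables that the authors filtered and scaled separately, so a technical difference between the tables and a difference between the groups cannot be told apart. Only the 12410 of 13207 genes with a value in all 12 columns were used, quantile-normalised together, and 11139 of them passed a filter on low values. Levels are normalised log2 CPM (counts relative to the size of the library, on a log2 scale), and a difference is the mean of tdTomato- Treg minus the mean of CD73- new Treg on that scale. A gene is called higher or lower at a Benjamini-Hochberg adjusted p under 0.05 in limma. The effective depth of the 6 libraries was 11000000 to 17300000 counts. Reads assigned to Lars2 took 30.8% to 32.4% of the summed CPM in tdTomato- Treg and 22.9% to 28.8% in CD73- new Treg. Quantile normalisation set the top-ranked genes Lars2 and Actb to the same level in each Treg library, so their differences were fixed at 0 and show nothing of the groups. With a constant shift per library in its place, Actb was higher in tdTomato- Treg by 0.27 (adjusted p = 0.00033). AP-1 genes respond to cell handling, and the average of 5 of them in log2 CPM was 8.42, 8.14 and 8.95 in tdTomato- Treg and 7.51, 6.68 and 8.20 in CD73- new Treg, in the order of the replicate letters A, B and D used for all sets of 3 values below.

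Many genes differed. Of 11139 genes, 1619 were higher in tdTomato- Treg (14.5%) and 2079 were lower (18.7%), 33.2% in all. The differences upward were larger: 514 of the genes called higher differed at least 2-fold, against 259 of those called lower. These counts were 690 and 80 with the deposited values and 683 and 81 with a constant shift per library. All counts over the tested genes include genes that passed the filter on low values only through the libraries of a single group. Where that group is tdTomato- Treg or CD73- new Treg, the direction of such genes follows from the filter. How many there are was not counted. The direction of the split depended on the scaling. With the deposited values as they were, 2002 genes were higher and 1526 lower, and with a constant shift per library 1966 were higher and 1555 lower, so that the share called higher was 43.8%, 56.7% and 55.8% of all calls under the 3 scalings. In each of the 3 scalings, 1528 genes were called higher and 1425 lower, and 0 genes were called in opposite directions. Of 1798 genes with a mean log2 CPM under 2, 321 were higher and 252 lower after quantile normalisation, but 449 and 59 with the constant shift. Of the 9341 genes at higher levels, 1298 were higher and 1827 lower after quantile normalisation, against 1487 and 1496 with the constant shift, so calls moved at both levels. Of the 11139 genes, the values of the libraries did not overlap between the groups for 2108 that were higher and 2977 that were lower. Non-overlap was thus common among all genes, and for single genes below it is a description only. The median difference over all genes tested was −0.06.

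**Figure D1:**
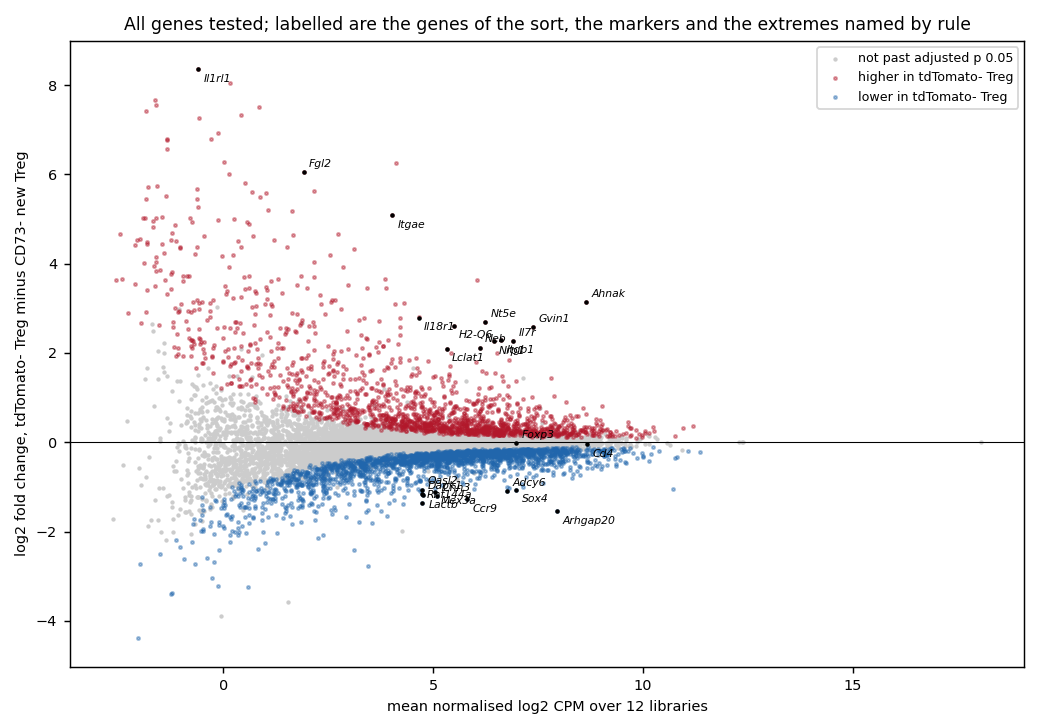
Each point is 1 of the 11139 genes tested, with its mean normalised log2 CPM over 12 libraries on the horizontal axis and the log2 fold change of tdTomato- Treg minus CD73- new Treg on the vertical axis. Red and blue mark genes called higher (1619) and lower (2079) at an adjusted p under 0.05, and black points are named. The upward differences reach 8.35 (Il1rl1), while Arhgap20 at −1.54 is the lowest of the named genes.

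Both groups met their gates. Foxp3 (ENSMUSG00000039521.13, GRCm38 chrX:7573644-7595245) was at 9.11, 9.19 and 9.04 in tdTomato- Treg and at 9.18, 9.15 and 9.05 in CD73- new Treg. The groups overlapped, and the difference of −0.02 (SE 0.24, adjusted p = 0.97) was within its error. Its SE is large because the fit shares its spread with the conventional T cells, where Foxp3 is low and varies. Cd4 was at 8.45, 8.50 and 8.45 against 8.53, 8.51 and 8.50, also without a call (−0.05, SE 0.05, adjusted p = 0.47).

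Nt5e was at 8.23, 8.24 and 8.23 in tdTomato- Treg and at 5.54, 5.72 and 5.39 in CD73- new Treg (GRCm38 chr9:88327197-88372092). The groups were far apart, 6.43-fold (log2 difference 2.69, SE 0.09, adjusted p = 3.0e-12). The CD73- gate sets part of this difference. The CD73+ new Treg, sorted as tdTomato+, GFP+ and CD73+, had a mean of 7.29. The tdTomato- Treg were not selected for CD73, and their Nt5e was above that level too (log2 difference 0.94, adjusted p = 1.9e-06). CD73+ and CD73- new Treg stand in the same table. In each comparison of tdTomato- Treg with CD73+ new Treg, table and group thus cannot be told apart either.

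Itgae encodes CD103, the integrin alpha E chain that binds E-cadherin on epithelium. It was at 7.73, 7.86 and 7.82 in tdTomato- Treg and at 2.83, 2.65 and 2.68 in CD73- new Treg, a 33.9-fold difference (log2 difference 5.08, SE 0.10, adjusted p = 2.8e-15). In CD73+ new Treg its mean was 4.51, between the other groups. Fgl2, which encodes a secreted fibrinogen-like protein of Treg with inhibitory activity, was at 5.50, 5.83 and 6.08 against −0.43, 0.31 and −0.62. It rested on 2603 recovered counts in tdTomato- Treg against 35 in CD73- new Treg, a ratio of 69.6 after scaling to depth (95% counting interval 49.9 to 100.1). Its mean in CD73+ new Treg was 1.46.

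Il1rl1 encodes ST2, the receptor for interleukin 33 on tissue Treg. It was at 4.31, 4.36 and 4.48 in tdTomato- Treg, while the CD73- new Treg libraries were at −4.19, −3.92 and −3.81, all below the level of 3 counts. These values are 975 counts against 1, a ratio of 912 with a 95% counting interval of 163 to 36067, which covers counting error only. The fitted log2 difference of 8.35 depends on the offset added to each count, and no test is given because the gene passed the filter only through the tdTomato- libraries. In CD73+ new Treg the mean of Il1rl1 was −0.32.

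**Figure D2:**
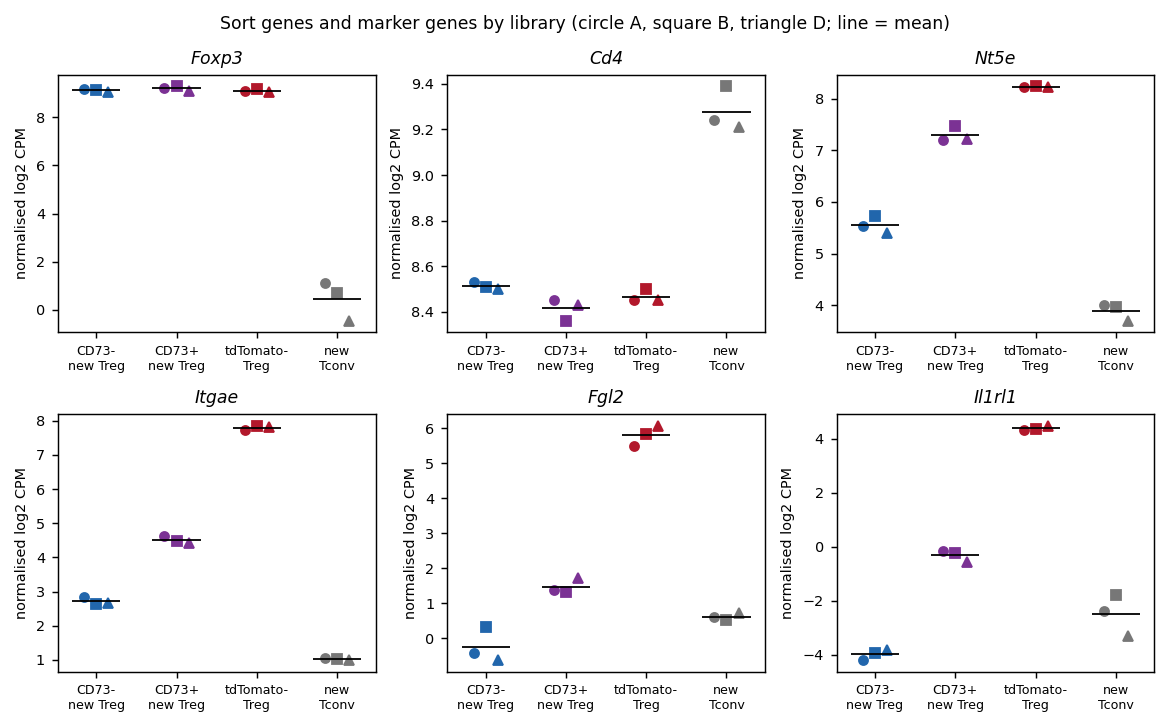
Normalised log2 CPM of the sort genes Foxp3, Cd4 and Nt5e and of the markers Itgae, Fgl2 and Il1rl1, with 1 symbol per library (circle A, square B, triangle D) and a line at the mean of each group of 3. Foxp3 is level over the Treg groups (means 9.13, 9.20 and 9.11), whereas Nt5e, Itgae, Fgl2 and Il1rl1 are lowest in CD73- new Treg among the Treg groups, in between in CD73+ new Treg and highest in tdTomato- Treg.

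Among genes above the median level whose groups did not overlap, the highest difference belonged to Ahnak, which encodes a very large scaffold protein. Ahnak was at 10.97, 10.97 and 11.12 in tdTomato- Treg and at 7.98, 7.76 and 7.92 in CD73- new Treg, 8.77-fold apart (log2 difference 3.13, SE 0.07, adjusted p = 3.9e-15). Next came Il18r1, a chain of the interleukin 18 receptor, at 6.64, 6.62 and 6.78 against 3.82, 3.75 and 4.09 (2.79, SE 0.14). The integrin beta 1 chain gene Itgb1 (2.29), the interleukin 7 receptor gene Il7r (2.27) and Nrp1 (2.27), a semaphorin receptor carried by many thymic Treg, followed Nt5e. Neb, which encodes the muscle protein nebulin, and Lclat1, an acyltransferase of cardiolipin remodelling, differed by 2.12 and 2.10. H2-Q6 (2.61) and Gvin1 (2.58) also belonged to these 10 genes, but both have near-identical relatives in the genome among which reads may have been split, so their values are uncertain.

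The lowest differences were smaller. Arhgap20, a GTPase-activating protein gene, was at 7.59, 7.58 and 7.52 in tdTomato- Treg and at 9.13, 9.02 and 9.15 in CD73- new Treg, 2.90-fold lower (−1.54, SE 0.06, adjusted p = 3.0e-11). Rnf144a, a ubiquitin ligase gene, differed by −1.36. Ccr9, the receptor for the thymic and intestinal chemokine CCL25, was at 4.49, 4.76 and 4.52 against 5.77, 6.13 and 5.67 (−1.27, SE 0.14, adjusted p = 2.7e-06). The actin-binding calponin gene Cnn3 (−1.21), the mitochondrial Lactb (−1.19), the kinase gene Dapk1 (−1.16) and the RNA-binding Mex3a (−1.10) were lower too, as were the adenylyl cyclase gene Adcy6 (−1.10), the transcription factor gene Sox4 (−1.06) and the interferon-induced Oasl2 (−1.06). These 20 genes kept their calls under each alternative tried. They were picked for large, called differences in these same libraries, so kept calls were likely beforehand and add little.

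Genes of effector and tissue Treg were nearly all higher in tdTomato- Treg. Of 36 genes on that list 32 were tested. Of these, 6 (Areg, Cxcr3, Ebi3, Gzmb, Havcr2 and Il1rl1) would not have passed the filter on low values without the tdTomato- libraries and are left out of the counts. Of the other 26 members 24 were higher and 1 was lower, with a median difference of 1.91 against −0.06 over all genes. Of all genes 14.5% were higher and 18.7% lower, the background for each list count against CD73- new Treg here and below. The 24 were higher under each of the 3 scalings, and 23 without the 4 libraries of letter D. Against CD73+ new Treg, 24 of the 26 were higher and 1 lower, with a median of 1.74. That comparison, in which 20.5% of all genes were called, shares the tdTomato- libraries. It also sets the same 2 tables against each other, so there too table and group cannot be told apart.

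Transcription factors of the effector programme were among them. Maf, a factor of effector T cells, was at 6.63, 6.83 and 6.99 in tdTomato- Treg and at 3.55, 3.56 and 4.02 in CD73- new Treg (3.11, SE 0.13, adjusted p = 2.9e-11). Prdm1, which encodes Blimp-1, was at 4.34, 4.72 and 4.96 against 1.66, 1.42 and 1.64 (3.10, SE 0.18). Neither overlapped, which held for 2108 of all 11139 genes in this direction. In CD73+ new Treg both stood near CD73- new Treg, with means of 3.82 and 1.63. Rora (1.23), Batf (1.32) and Nfil3 (2.61) were higher as well, and Id2 by 0.48, a call lost without letter D (adjusted p = 0.098). The single member that was lower was Gata3, a factor of CD4+ lineage choice that tissue Treg also use, at 7.41, 7.39 and 7.30 against 7.73, 7.66 and 7.65 (−0.31, SE 0.05, adjusted p = 8.0e-05).

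The surface receptors on this list were higher with large differences. Icos, a costimulatory receptor of the CD28 family, was at 7.94, 8.06 and 8.06 against 6.21, 6.20 and 6.14, 3.57-fold (1.83, SE 0.05, adjusted p = 3.6e-13). The inhibitory receptor gene Tigit was at 4.85, 5.06 and 5.04, and 9 counts were recovered in all of CD73- new Treg against 1464, a ratio of 152 (95% counting interval 80.0 to 333.5). Havcr2, which encodes TIM-3, had 264 counts against 5. Cd44, a hyaluronan receptor of activated T cells, was 1.97-fold higher (0.98, SE 0.06), and Tnfrsf1b, the TNF receptor TNFR2, 1.71-fold (0.77, SE 0.07). The effector molecule genes Gzmb, which encodes granzyme B, and Ebi3, a subunit of the cytokines IL-27 and IL-35, had 389 and 194 counts in tdTomato- Treg against 12 and 8.

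Small calcium-binding and cytoskeletal proteins on the list were higher too. S100a4 was at 4.69, 4.61 and 4.83 against −1.19, −1.02 and −0.40, with 1214 counts against 20. S100a6 (5.48), S100a11 (1.98) and S100a10 (1.09) were higher, as were the galectin gene Lgals1 (1.12), the annexin gene Anxa2 (0.92) and Crip1 (0.90). Areg, a growth factor of tissue repair, was at 0.53, 0.06 and −0.15 against −0.59, −0.67 and −0.40, and its difference of 0.70 had an SE of 0.60 (adjusted p = 0.40). This test has a limit, since Areg would not have passed the filter without the tdTomato- libraries. Lgals3 was not called either (0.35, SE 0.45). The other 4 genes of the list, Klrg1, Il10, Pparg and Anxa1, stand only in the table of tdTomato- Treg, and their levels in CD73- new Treg are not analysed here.

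**Figure D3:**
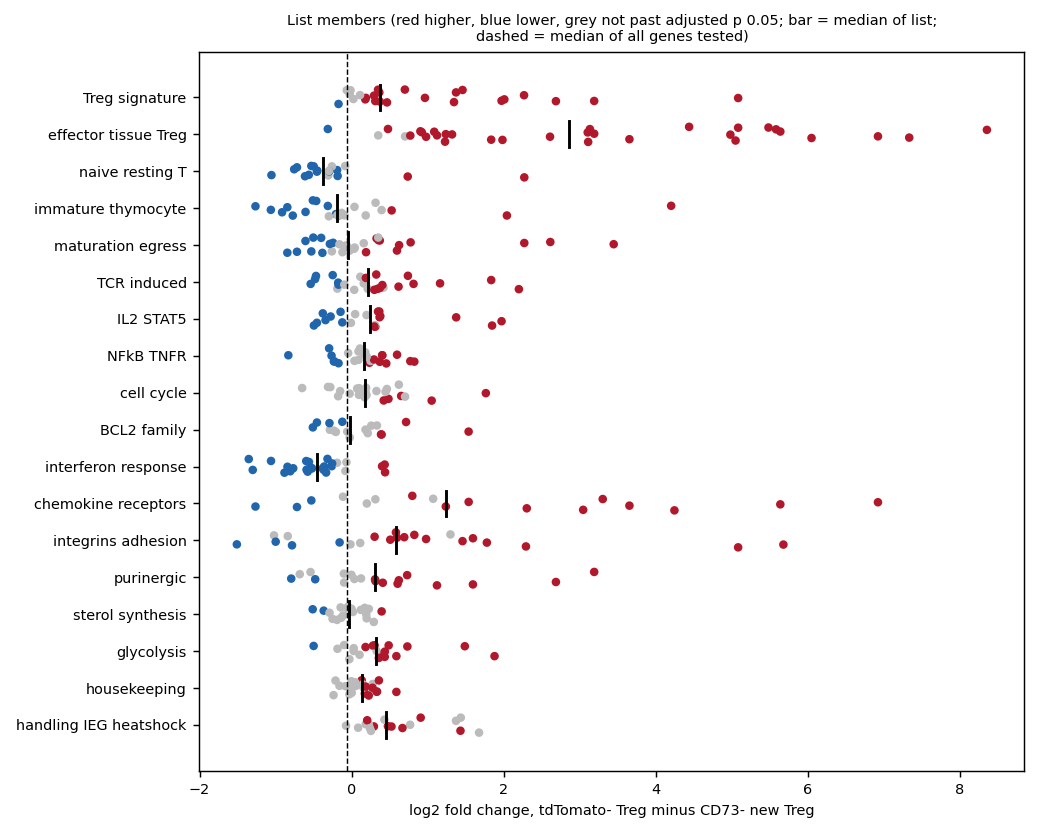
Log2 fold change of tdTomato- Treg minus CD73- new Treg for each tested member of 18 gene lists (red higher, blue lower, grey not past an adjusted p of 0.05), with a bar at each list's median and a dashed line at the median of all genes (−0.06). The effector and tissue Treg list lies farthest to the right (median 2.86 over the 32 members tested, 1.91 without the 6 that needed tdTomato- Treg to pass the filter) and the interferon list farthest to the left (median −0.45).

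The wider Treg signature was higher by less. Of 25 members, all tested, 19 were higher and 1 was lower, with a median of 0.37, and 17 were higher in all 3 scalings. Nt5e, whose difference the CD73- gate sets in part, is among the 19. Without letter D 15 were higher. Capg, an actin-capping protein gene, was at 7.06, 7.08 and 6.98 against 5.15, 5.02 and 4.94 (2.01, SE 0.08, adjusted p = 1.6e-11). Nrp1 was at 8.79, 8.77 and 8.70 against 6.59, 6.59 and 6.29 (2.27, SE 0.11). The groups did not overlap in either gene, which held for 2108 of all 11139 genes in this direction.

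Receptors and regulators of suppression differed by unequal amounts. Lrrc32 and Itgb8 encode the GARP protein, which holds latent TGF-beta on the surface, and an integrin chain that activates it, and they differed by 0.96 (SE 0.10) and 1.46 (SE 0.18). Il2ra, the high-affinity chain of the IL-2 receptor, was at 9.77, 9.92 and 9.80 against 9.48, 9.57 and 9.35, 1.29-fold (0.36, adjusted p = 0.0039). Ctla4, an inhibitory receptor central to Treg function, was higher by 0.46 (SE 0.12, adjusted p = 0.0055), but not without letter D (adjusted p = 0.098). The Helios gene Ikzf2 and Ikzf4 were called at 0.19 and 0.18, but neither was called with the constant shift (adjusted p = 0.13 and 0.10). Tnfrsf9, which encodes 4-1BB, was lower by a small amount (−0.17, SE 0.06, adjusted p = 0.043), a call lost in 8 alternatives, and Foxp3, Gpr83, Dusp4, Foxo1 and Swap70 were not called.

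Genes on the list for adenosine and nucleotides were higher in part. Of 19 tested members 10 were higher and 2 lower, with a median of 0.31. Nt5e itself is among the 10, and the CD73- gate sets part of its difference. Entpd1, the CD39 gene that acts before CD73, was at 5.30, 5.26 and 5.50 in tdTomato- Treg and at 1.93, 2.25 and 2.31 in CD73- new Treg, 9.12-fold (3.19, SE 0.25, adjusted p = 5.4e-08). Its mean in CD73+ new Treg was 3.24, below tdTomato- Treg (difference 2.11, adjusted p = 1.0e-05). Among receptors, P2rx7, an ATP-gated channel, was at 6.67, 6.66 and 6.69 against 5.47, 5.71 and 5.47 (1.12, SE 0.09). The adenosine receptor gene Adora2a was at 4.73, 4.63 and 4.81 against 2.98, 2.82 and 3.58, 3.02-fold (1.59, SE 0.17, adjusted p = 2.4e-06).

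Genes that take up or remove adenosine differed less. The adenosine kinase gene Adk (0.41), the nucleoside transporter gene Slc29a1 (0.62) and the purine nucleoside phosphorylase gene Pnp (0.60) were higher. Other members of the list, the pyrophosphatase gene Enpp1 (0.73), P2ry10 (0.31) and Dpp4 (0.31), were higher as well. The call of Dpp4 was lost without letter D (adjusted p = 0.18). The adenosine deaminase gene Ada was not called. The cytosolic nucleotidase gene Nt5c2 was lower at 5.50, 5.37 and 5.44 against 6.02, 5.87 and 5.87 (−0.48, SE 0.07, adjusted p = 9.2e-05). P2ry14 was lower (−0.80) only after quantile normalisation, and with the constant shift its difference was −0.27 (adjusted p = 0.53).

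Targets of TCR signalling moved both ways. Of 25 members 12 were higher and 6 lower, beside 14.5% and 18.7% of all genes, with a median of 0.21. Irf4 and Bhlhe40, transcription factors of activated T cells, were higher by 0.74 (SE 0.08) and 1.16 (SE 0.15). In contrast, the nuclear receptor genes Nr4a3 and Nr4a1, immediate targets of TCR signals, were lower. Nr4a3 was at 7.34, 7.29 and 7.31 against 7.84, 7.92 and 7.80 (−0.54, SE 0.06, adjusted p = 2.6e-06), while Nr4a1 differed by −0.48 (SE 0.13, adjusted p = 0.0083). Cd5 and Cd200 were lower by small amounts (−0.18 and −0.25), Egr3 was higher (0.62), and Cd69 was not called (0.16, SE 0.09). Only 3 members were lower without library D of CD73- new Treg, and 3 without letter D, of the 6.

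Genes of IL-2 and STAT5 signalling were mixed as well, with 9 of 20 higher, 7 lower and a median of 0.25. Of all genes 14.5% were higher and 18.7% lower. Some feedback inhibitors and a kinase induced by cytokines were higher. Socs3 was at 5.78, 5.77 and 5.78 against 3.82, 4.19 and 3.78 (1.85, SE 0.11), and Pim1 at 8.27, 8.24 and 8.17 against 6.96, 6.80 and 6.80 (1.37, SE 0.08). Socs2 was higher by 1.97 (SE 0.39). The related inhibitor genes Socs1 (0.31, SE 0.15) and Cish (0.31, SE 0.09) differed by less: Socs1 was not called, and the call of Cish was lost without library B of tdTomato- Treg (adjusted p = 0.064). Bcl2, a survival gene downstream of cytokine receptors, was lower at 8.77, 8.72 and 8.66 against 9.16, 9.13 and 9.24 (−0.46, SE 0.05, adjusted p = 5.9e-06). Stat5a (−0.38) and the cyclin gene Ccnd2 (−0.34) were lower too. Without letter D, 4 of the 7 lower members were called.

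In the NF-kB and TNF receptor list 9 of 24 members were higher and 6 lower, with a median of 0.16. Of all genes 14.5% were higher and 18.7% lower. The adaptor gene Traf1 (0.60, SE 0.07) and the adhesion ligand gene Icam1 (0.82, SE 0.11) were higher, and the subunit gene Rel (−0.30, SE 0.05), the inhibitor of apoptosis gene Birc3 (−0.27) and Cd40lg (−0.83, SE 0.15) were lower. Nfkb1 was not called (0.09, SE 0.04). Of the 6 lower members 4 were called in all 3 scalings, 3 without letter D and 3 without library A or D of CD73- new Treg.

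Receptors that guide cells to tissues were among the largest differences. In the chemokine receptor list 17 members were tested, of which Cxcr3 and Ccr3 passed the filter only through the tdTomato- libraries and are not counted. Of the other 15 members 8 were higher and 3 lower, with a median of 1.07. These 8 and 3 were called in all 3 scalings, and 8 were higher and 3 lower without letter D. Ccr4, found on skin- and lung-homing T cells, was at 5.46, 5.64 and 5.72 against 1.72, 2.27 and 1.88, 12.6-fold (3.65, SE 0.16, adjusted p = 3.4e-11). Cxcr5, the receptor that leads T cells to B cell follicles, was at 5.16, 4.98 and 5.26 against 2.15, 1.66 and 1.69 (3.30, SE 0.22). Ccr6, the CCL20 receptor, was at 6.23, 6.42 and 6.22 against 3.99, 3.98 and 3.99 (2.30, SE 0.21).

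Several receptors were nearly silent in CD73- new Treg. Cxcr3, a receptor of type 1 inflammation, was at 3.42, 3.73 and 3.92 in tdTomato- Treg with 628 counts, against 5 counts in CD73- new Treg, a ratio of 118 (95% counting interval 50.1 to 363.2). Ccr2, a receptor of inflamed tissue, had 2272 counts against 56, of which 39 were in library B. Ccr8, a receptor of tissue Treg, was already present in CD73- new Treg at 3.68, 3.87 and 3.80 and was at 5.10, 5.10 and 4.88 in tdTomato- Treg (1.24, SE 0.10). Cxcr4, the receptor for CXCL12, was higher by 0.80 (SE 0.12).

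The 3 lower members were Ccr9, with the values given above, Ccr7 and S1pr1. Ccr7 draws thymocytes to the medulla, and it was at 7.76, 7.64 and 7.54 against 8.62, 8.08 and 8.40 (−0.72, SE 0.14, adjusted p = 0.00074). S1pr1, the receptor needed to leave the thymus for blood, was at 8.26, 8.27 and 8.09 against 8.80, 8.79 and 8.64 (−0.53, SE 0.06, adjusted p = 4.2e-06). In none of the 3 did the libraries of the groups overlap, which held for 2977 of all 11139 genes in this direction.

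Integrins split by chain. Of 22 tested adhesion genes, Itga1 would not have passed the filter without the tdTomato- libraries. Of the other 21 members 13 were higher and 4 lower, with a median of 0.58. Beside Itgae, its partner Itgb7 was at 8.23, 8.34 and 8.22 against 7.73, 7.56 and 7.72 (0.59, SE 0.07). Itgb1 was at 8.12, 8.04 and 8.11 against 5.82, 5.89 and 5.69, and its partners Itga4 (0.51), Itgav (0.69) and Itga6 (0.58) were higher by less. Itga7, a chain of laminin receptors, had 181 counts in tdTomato- Treg and 1 in CD73- new Treg, a ratio of 169 (95% counting interval 30.0 to 6725).

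Itga9 and Itgb3 were lower. Itga9 was at 3.31, 3.12 and 2.92 against 4.63, 4.71 and 4.55, 2.85-fold lower (−1.51, SE 0.18, adjusted p = 6.1e-06), and Itgb3, a partner of Itgav, was at 5.71, 5.58 and 5.65 against 6.64, 6.63 and 6.67 (SE of the difference 0.06, adjusted p = 1.4e-09). The fibronectin receptor chain gene Itga5 was lower as well (−0.79, SE 0.15). Itgb2, the common chain of leukocyte integrins, differed by −0.16 (SE 0.04), and its partner Itgal was not called.

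**Figure D4:**
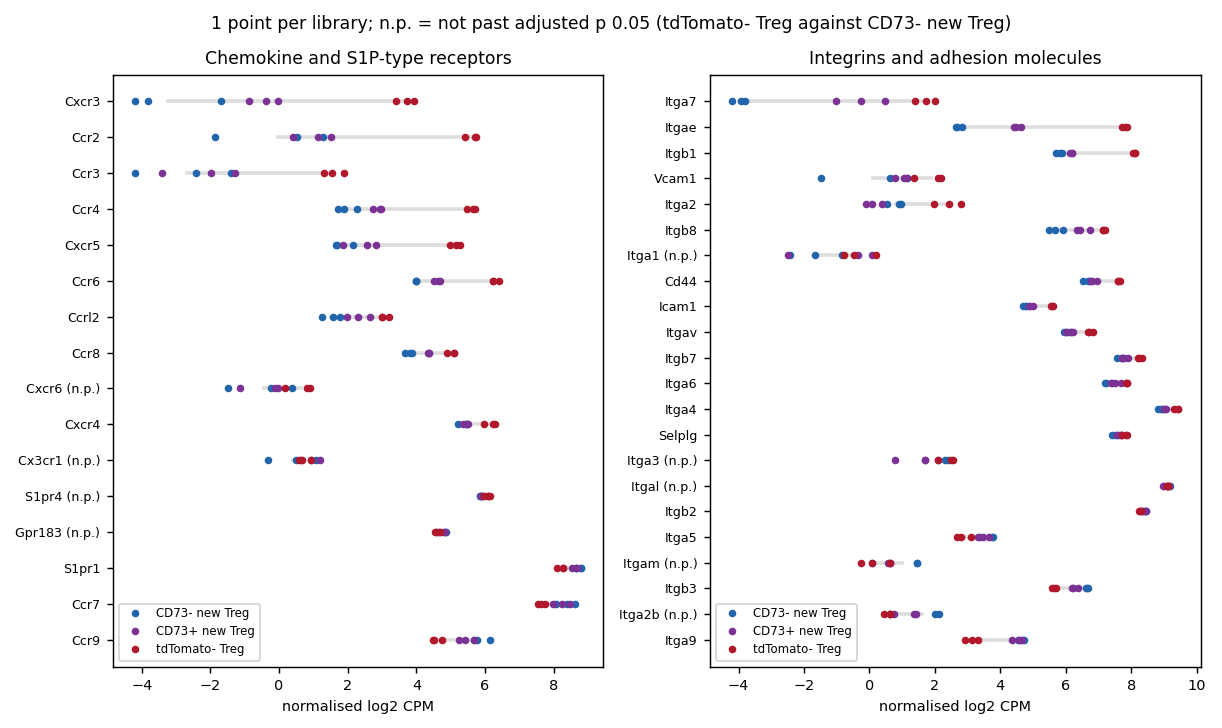
Normalised log2 CPM of tested chemokine-type receptors (left) and adhesion genes (right), 1 point per library for CD73- new Treg (blue), CD73+ new Treg (purple) and tdTomato- Treg (red), ordered by the difference. Red points lie to the right for Cxcr3, Ccr2, Ccr4, Itgae and Itgb1 and to the left for Ccr9, Ccr7, S1pr1, Itga9 and Itgb3.

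Genes of resting and naive T cells were mostly lower. Of 18 members, 12 were lower and 2 higher, in each of the 3 scalings, with a median of −0.38. Satb1, a chromatin organiser of thymocytes, was at 9.90, 9.80 and 9.85 in tdTomato- Treg and at 10.89, 10.85 and 10.97 in CD73- new Treg, 2.08-fold lower (−1.06, SE 0.04, adjusted p = 5.7e-12). The transcription factor genes Bach2 (−0.56, SE 0.05), Lef1 (−0.50, SE 0.05), Foxp1 (−0.30) and Tcf7 (−0.19) were lower. Their groups did not overlap, which held for 2977 of all 11139 genes in this direction. Without letter D the call of Tcf7 was lost (adjusted p = 0.13). Klf2 was not called (−0.26, SE 0.16). Il7r, at 7.72, 7.79 and 7.78 against 5.50, 5.71 and 5.27, and Igfbp4 (0.74) were the members that were higher. Without letter D, 10 of 17 tested were lower.

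Genes of immature thymocytes were lower in part: 11 of 23 tested members were lower and 3 higher, with a median of −0.19. Of all genes 18.7% were lower and 14.5% higher. Without library B of CD73- new Treg, 5 members were higher. Themis, which tunes TCR signals during selection, was at 6.88, 6.89 and 6.89 against 7.72, 7.90 and 7.79 (−0.92, SE 0.06, adjusted p = 3.7e-09). Itm2a, an induced gene of selected thymocytes, was at 6.45, 6.37 and 6.47 against 7.26, 7.20 and 7.17 (−0.78, SE 0.06), and Sox4 at 6.00, 6.07 and 5.95 against 7.06, 6.99 and 7.17. Tox, a factor of CD4+ lineage development, differed by −0.47 (SE 0.05) and Cd24a, whose surface protein is lost as thymocytes mature, by −0.85 (SE 0.16). Rag1 and Dntt, the recombination genes of earlier thymocytes, were not called and varied most in CD73- new Treg, where Rag1 was at 2.80, 4.78 and 2.83 and was highest in library B. Tox2 (4.20, SE 0.52) and the tetraspanin gene Cd81 (0.53, SE 0.11) were higher.

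Genes of thymocyte maturation and exit did not move one way, with 10 of 30 higher, 9 lower and a median of −0.04. Of all genes 14.5% were higher and 18.7% lower. The MHC class I genes H2-D1 (0.37), H2-K1 (0.35) and B2m (0.33), which mark mature thymocytes, were higher. Ly6a, which encodes Sca-1, was at 5.16, 5.45 and 5.74 against 2.02, 2.20 and 1.79, 10.9-fold (3.45, SE 0.16). The GTPase gene Gimap6 (−0.61, SE 0.07) and Ms4a4b (−0.51, SE 0.07) were lower. Reads of the H2, Ly6 and Gimap families may be split among similar copies.

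Interferon response genes were lower in tdTomato- Treg. Of 26 tested members 20 were lower and 3 higher, with a median of −0.45, and 19 were lower in all 3 scalings and 17 without letter D. Against CD73+ new Treg, with the tdTomato- libraries shared and the same 2 tables compared, 17 were lower and 2 higher, with a median of −0.39. Many genes of this response carry the interferon-stimulated response element in their promoter, which binds the factors that interferon receptors activate. Its core, searched as GAAANNGAAA on both strands in the 300 bases from 250 before to 50 after the start of transcription, was in 9 of the 16 lower members that have a RefSeq promoter window and in 3.99% of 27025 genes. It was also in 3 of the 3 members that were higher, so the motif is shared by both directions. The promoter stretches of 4 lower members with the motif are shown from RefSeq (GRCm38.p6), each 5′ to 3′ on the strand of its gene, with matches in capitals (a match on the other strand reads as the reverse complement). They show the motif in single and repeated form.
Isg15 (chr4:156200845-156200926, minus strand): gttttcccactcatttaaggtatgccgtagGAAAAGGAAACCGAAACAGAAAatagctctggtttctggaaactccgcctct
Ifit1 (chr19:34640755-34640843, plus strand): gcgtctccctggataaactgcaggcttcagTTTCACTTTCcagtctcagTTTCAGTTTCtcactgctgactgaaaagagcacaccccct
Ifit3 (chr19:34583343-34583446, plus strand): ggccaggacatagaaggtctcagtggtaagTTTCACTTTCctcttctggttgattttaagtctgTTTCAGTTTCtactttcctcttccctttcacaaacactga
Rsad2 (chr12:26456533-26456602, minus strand): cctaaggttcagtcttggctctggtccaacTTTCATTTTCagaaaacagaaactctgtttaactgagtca

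Isg15, a ubiquitin-like antiviral protein gene with 3 overlapping matches, was at 2.93, 2.96 and 2.54 in tdTomato- Treg and at 3.66, 3.89 and 3.42 in CD73- new Treg, 1.80-fold lower (−0.85, SE 0.15, adjusted p = 0.00029). Ifit1 and Ifit3, which encode RNA-binding antiviral proteins and have 2 matches each, differed by −0.81 (SE 0.15) and −0.36 (SE 0.10). Rsad2, the viperin gene with 1 match, was at 3.28, 3.51 and 3.13 against 4.12, 4.21 and 4.26 (−0.88, SE 0.14, adjusted p = 9.9e-05). The groups did not overlap in any of these genes, which held for 2977 of all 11139 genes in this direction.

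The oligoadenylate synthetase family, which senses double-stranded RNA, held the largest differences and went both ways. Oas2 was at 2.37, 2.72 and 2.65 against 3.76, 4.02 and 4.03, 2.56-fold lower (−1.35, SE 0.13, adjusted p = 5.1e-07). Oasl1 was at 2.46, 2.71 and 2.41 against 3.85, 3.70 and 3.93 (−1.30, SE 0.12), and Oas3 differed by −0.52 (SE 0.08). Oas1a was higher by 0.44 (SE 0.15, adjusted p = 0.038). Oas1a and the GTPase genes Gbp2 (0.43, SE 0.11) and Gbp7 (0.40, SE 0.10) were the 3 members that were higher, and none of them was called without letter D.

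Transcription factors of the interferon pathway were lower by less. Irf7, which amplifies the type I interferon response, was at 6.09, 6.18 and 6.19 against 6.80, 6.66 and 6.70 (−0.56, SE 0.06, adjusted p = 9.4e-07). Irf9 (−0.37, SE 0.05) and Stat2 (−0.26, SE 0.08) were lower, Stat2 not without letter D (adjusted p = 0.13). Usp18 (−0.19, SE 0.10) and Ifi27l2a (−0.08, SE 0.07) were not called. Bst2 was lower only after quantile normalisation (−0.38, adjusted p = 0.040), and its difference with the constant shift was −0.24 (adjusted p = 0.22).

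**Figure D5:**
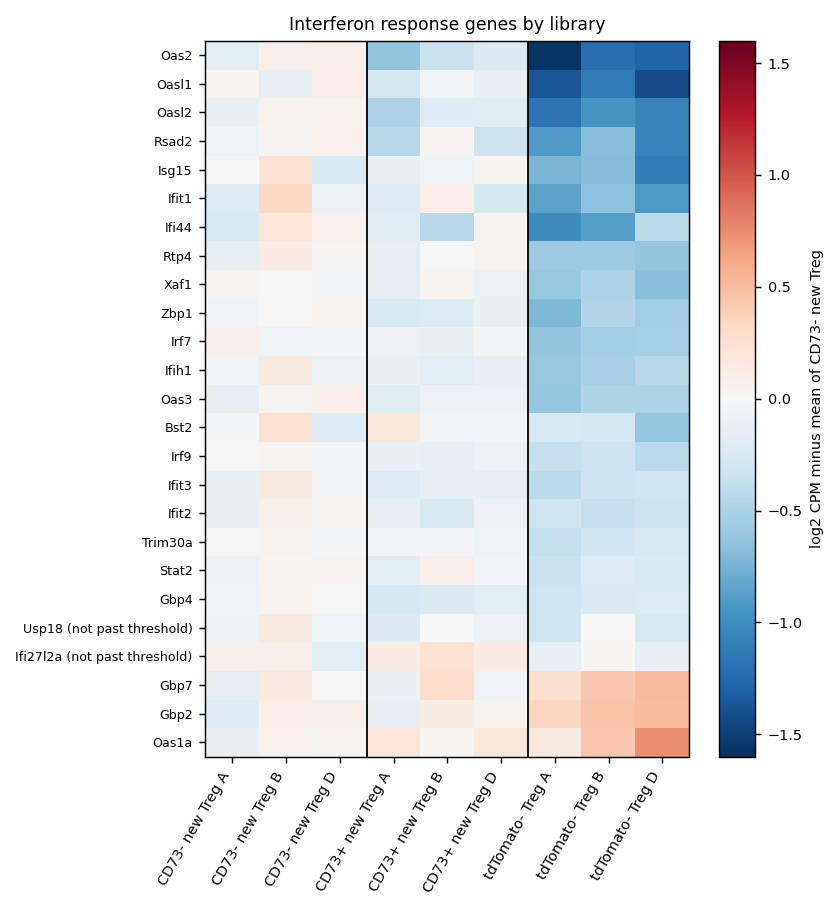
Normalised log2 CPM of 25 interferon response genes in the 9 Treg libraries, shown as the difference from the mean of CD73- new Treg (colour scale in log2 units, blue lower, red higher). The columns of tdTomato- Treg are blue for the 20 genes that were lower, from Oas2 (−1.35) on, and red for Gbp7, Gbp2 and Oas1a.

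Of 25 cell cycle genes 5 were higher and 0 lower, beside 14.5% and 18.7% of all genes, with a median of 0.18. Tk1, a thymidine kinase of S phase, was at 3.57, 3.78 and 3.88 against 2.02, 1.83 and 2.08, 3.40-fold (1.76, SE 0.15, adjusted p = 1.4e-07). Mki67 was at 6.66, 6.62 and 6.78 against 5.45, 6.32 and 5.13 (1.05, SE 0.22), with library B of CD73- new Treg nearest to tdTomato- Treg. Mcm6 was higher by 0.42 (SE 0.09). The count was 9 without that library B, 10 with the values as deposited, 9 with the constant shift and 3 without letter D.

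The BCL2 family and its partners split evenly, with 4 of 17 tested members higher and 4 lower, beside 14.5% and 18.7% of all genes. The BH3-only gene Pmaip1, which encodes NOXA, was higher by 1.54 (SE 0.22) and Bid by 0.71 (SE 0.13), and so was Bcl2l1, the gene of the survival protein BCL-XL (0.39, SE 0.08). Bcl2l11, which encodes the death-promoting BIM, was lower (−0.51, SE 0.07, adjusted p = 2.2e-05), as were Bcl2 and Casp8 (−0.29).

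Of 20 glycolytic genes Aldoc passed the filter only through the tdTomato- libraries, and of the other 19 members 11 were higher and 1 was lower, with a median of 0.30. Aldoa was at 6.93, 6.97 and 6.85 against 6.17, 6.17 and 6.22 (0.73, SE 0.05, adjusted p = 3.4e-08). Tpi1 (1.49, SE 0.15), Gapdh (0.59, SE 0.05) and Pkm (0.44, SE 0.05) were higher, Ldha was not called (0.10, SE 0.06), and the lower call of Pfkm (−0.50) was lost under both other scalings. Of 25 reference genes of common use, which share Gapdh, Pgk1 and Gpi1 with this list, 9 were higher and 0 lower, with a median of 0.13. The difference of Actb, which is among the 25, was fixed at 0 by the normalisation. In sterol synthesis 1 of 20 genes was higher (Sc5d, 0.39) and 2 were lower (Hmgcs1, −0.37, and Idi1, −0.51). Of all genes 14.5% were higher and 18.7% lower.

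Handling genes and markers of other cells were measured beside these lists. Of 18 tested immediate-early and heat shock genes 7 were higher and 0 lower, with a median of 0.45 and a summed level of 5045 to 6774 CPM in tdTomato- Treg against 3635 to 4983 CPM in CD73- new Treg. Jun was higher by 1.43 (SE 0.38, adjusted p = 0.0077), while Fos (0.77, SE 0.46) and Fosb (1.43, SE 0.68) overlapped between the groups. Under other scalings, filters, variance settings and with libraries left out, 3 to 11 of these genes were higher. The count was 4 without library B of CD73- new Treg and 11 without its library D. It was 4 without library A or D of tdTomato- Treg and 11 without letter D. With the replicate block, 16 of the 18 were higher. Within each letter the average of the 5 AP-1 genes given above was higher in tdTomato- Treg. The part of handling in the TCR-induced and NF-kB genes was not tested.

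Markers of myeloid cells summed to 222 to 248 CPM in tdTomato- Treg and 149 to 187 CPM in CD73- new Treg, and 4 of 10 tested members were higher (Ctss, Cd74, Cst3 and Lyz2) and 0 lower. Without library A or B of tdTomato- Treg 2 were higher, and without library A of CD73- new Treg 3 were higher and 2 lower. B cell markers summed to 9.52 to 11.9 CPM against 5.42 to 8.20 CPM, with Fcmr and Cd79b higher and Ms4a1 lower, of which Fcmr passed the filter only through tdTomato- Treg and Ms4a1 only with CD73- new Treg. Without letter D, Cd79b was not called (adjusted p = 0.063) and Fcmr was not tested, and Ms4a1 was at or near the level of a few counts, with 15 counts in tdTomato- Treg and 39 in CD73- new Treg and no call under the other scalings.

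Markers of CD8+ and double-positive thymocytes summed to 138 to 158 CPM in tdTomato- Treg and 88.4 to 158 CPM in CD73- new Treg, whose library B was the highest. Of 13 tested members 4 were higher, among them Runx3, Ccl5 and Nkg7, which effector T cells also express. Without library B of CD73- new Treg, 7 of 12 tested members were higher. Cd8a, Cd8b1 and Aqp11 were lower, but 0 of the 3 were called as deposited and 1 with the constant shift. Of innate-like T and NK markers Il2rb, also a Treg gene, was higher and Cd160 lower (1 of 8 tested each), and the call of Cd160 was lost under both other scalings. Thymic epithelial markers Ly75 and Epcam were higher and Ccl25 lower (3 tested), erythroid markers gave 0 calls in 7, and Vim was higher and Pecam1 lower of 2 stromal or endothelial markers. None of the members with values in all 12 columns was at 0 counts in all 6 libraries, and the part of other cells in the differences above was not tested.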

How the data were processed

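RNA sequencing values of 12 libraries in 4 groups of 3 were used, and 6 libraries are described. Per the submitters' processing notes, STAR, RSEM and limma were used with the mm10 build, and their versions and options are not given in the sources used here. Values deposited by the authors are log2 CPM per gene and library in 2 separately filtered and scaled tables of 6 libraries, merged by gene ID, with an offset of 0.5 count read from the values. Between 94.6% and 97.1% of counts recovered from low values lay within 0.1 of a whole number. The authors' deposited log2 fold changes and p-values for other comparisons were not used. In the present work, genes with 12 values were quantile-normalised together, kept where 3 or more libraries had a log2 CPM of 0 or above, and fitted with limma 3.58.1 in R 4.3.3 (4 group means over 12 libraries, no block, intensity trend, two-sided tests, Benjamini-Hochberg adjustment over all genes tested). Joint normalisation cannot show whether the tables differ for technical reasons, since tdTomato- Treg and CD73- new Treg stand in different tables: group and table cannot be told apart.

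Standard errors are those of the limma fit, with a variance shared over the 12 libraries and moderated across genes. Counting intervals are 95% exact and do not cover other error, because the reads carry no molecular identifiers and can be copies of one molecule. A gene with no count has an upper limit of 3 counts. Depth was 11000000 to 17300000 counts per library. Within tdTomato- Treg and within CD73- new Treg, no library was found deposited more than once, and other pairs were not checked. Gene coordinates are from GENCODE M21 (99.0% of IDs matched) and promoters from RefSeq. The text names the sort genes and markers, the 10 highest and 10 lowest differences among called genes above the median level whose groups do not overlap (predicted genes, pseudogenes, receptor segments and histones left out), and up to 3 members per direction of each list by p-value. Values of some list members are not reported here. Other list members were named after their values were seen. The compared groups, the gene lists and the rule were chosen with earlier results of these data known. The alternatives were other scalings, filters, a pseudocount of 1 CPM, other variance settings, a replicate block, and libraries left out. The procedure was tested on simulated data that held no difference between tables or letters. That test therefore cannot show whether the joint normalisation suits these data.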

Additional observations from a re-analysis of the deposited data

Results flagged for a closer look

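In tdTomato- Treg, 3 listed genes were above the level of the conventional T cells (Tconv) although they stand only in the table of those 2 groups, so that their level in CD73- new Treg is not analysed here. Klrg1, an inhibitory receptor of effector Treg, was at a deposited log2 CPM of 2.27, 2.15 and 2.23 (mean 2.22, 208 counts) with 0 counts in Tconv. Il10, an inhibitory cytokine, was at 1.89, 1.79 and 2.02 (mean 1.90, 168 counts) with 0 counts in Tconv. Col1a2, a collagen gene of stromal cells, was at 0.44, 0.60 and 0.48 (mean 0.51, 63 counts) with 0 counts in Tconv. Groups of 3 libraries are too small for a test of single outlying libraries.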

How the results depend on the processing

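The counts of 1619 genes higher and 2079 lower became 1043 and 1121 without the 4 libraries of letter D, an alternative added after seeing the data in which each group has 2 libraries. Leaving out 1 library of either group gave 1271 to 1562 higher and 1580 to 1885 lower. The replicate block gave 1815 and 2387, and it raised the handling genes called higher from 7 to 16 of 18 and the innate-like T and NK markers from 1 to 2 of 8. The average of the AP-1 genes was lowest in letter B and highest in letter D in each of the 4 groups. Libraries of the same letter correlated at 0.099, 0.080 and 0.107 in their deviations from the group means, and those of different letters at −0.117 to 0.024. Each library thus correlated best with its own letter. These correlations are small, and they depend on each other because the deviations are taken from the mean of the same libraries. What the letters mark is not stated. The main fit held no term for the letter, so what libraries of a letter share stayed in its error. The remaining alternatives (scaling, filter, pseudocount, variance settings) gave 1477 to 2002 higher and 1526 to 2106 lower. Of the 114 genes picked by the naming rule, 94 kept their call or lack of one in each alternative that tested them, and 0 changed direction. The rule leaves out the list members named after their values were seen. It takes mostly genes already called in these libraries, which favours keeping a call. The calls of Aqp11, Cd160, Cd8a, Idi1, P2ry14 and Pfkm were lost under both other scalings, and the cause was not tested. Among genes the text names, leaving out library A of CD73- new Treg ended the calls of Epcam, Sc5d and Pfkm. Without its library B, Cd160 and Cd8a lost theirs, and without its library D, Cst3, Dpp4, Nr4a1 and Stat2. The adjusted p of these genes was then 0.051 to 0.099. Bst2, Hmgcs1, Idi1, Ikzf2, Ikzf4, Lyz2, Oas1a, P2ry14 and Tnfrsf9 lost theirs in more than one of these settings, with adjusted p up to 0.25. Leaving out a library of tdTomato- Treg ended the call of Ms4a1 and of some of these genes. Il1rl1, Cxcr3, Ccr3, Fcmr and Havcr2 then fell below the filter and were not tested. Without letter D, Cd5, Gbp2, Gbp7, Ifit3 and Itgb2 also lost theirs, with adjusted p from 0.058 to 0.15. Calls depend on the scaling at low and at higher levels, and genes with few counts in CD73- new Treg on the offset.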
